A study of Mus musculus with 8 samples.

Results

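The AP-1 subunits and early response genes are 10 mouse genes: Fos, Fosb, Fosl1 and Fosl2 of the Fos family, Jun, Junb and Jund of the Jun family, and Atf3, Egr1 and Ier3. Their members were the non-control probes whose accession belongs to one of these genes, which gave 11 probes of 55681 on the array and 10 genes of the 20145 with a symbol. Fosl2 had 2 probes and each other gene had 1. The samples were 5 ovarian neoplasias from mice with the genotype Pgrcre/+mPgrLsL/+ and 3 ovaries from wildtype mice, which carry neither allele. Mice of both groups were cycling and were killed at 33 weeks of age, and ovarian RNA was measured on one-colour Agilent arrays with 1 array per sample. The design text of the series writes the second allele as PgrBLsL/+, the B isoform of the progesterone receptor. In such a model Cre is made where the Pgr promoter is active and removes a stop cassette in front of the receptor transgene, so the transgene starts in cells that express Pgr and in their descendants. The stage of the oestrous cycle is not given. Whether the arrays stand for different animals is not stated either, and the p-values therefore cover the spread among these samples, which may be partly technical.

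AP-1 is a dimeric transcription factor built from a Jun protein with a Fos, Atf or second Jun protein, joined by leucine zippers. Its subunits differ in how strongly they activate transcription, so the mix of subunits in a cell sets what AP-1 does. Fos, Fosb, Jun, Junb, Atf3, Egr1 and Ier3 are known as immediate early genes, which growth factors, gonadotropins and stress switch on without new protein synthesis, whereas Fosl1 and Fosl2 are known to follow later and to last longer. In the rat ovary Fosl2 and Jund are known from luteinizing granulosa cells and the corpus luteum.

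The upstream sequences of 4 members are shown because these genes went different ways in the neoplasia. They are the 250 bases before the gene start, from RefSeq on GRCm38.p6, and capitals mark matches to the motifs described below.
Fos, chr12:85473640-85473889, plus strand: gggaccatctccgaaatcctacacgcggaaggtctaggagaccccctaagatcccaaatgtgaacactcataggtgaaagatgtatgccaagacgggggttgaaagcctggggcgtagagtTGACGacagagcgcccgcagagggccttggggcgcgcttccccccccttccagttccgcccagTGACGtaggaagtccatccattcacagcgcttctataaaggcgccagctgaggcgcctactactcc
Junb, chr8:84978749-84978998, minus strand: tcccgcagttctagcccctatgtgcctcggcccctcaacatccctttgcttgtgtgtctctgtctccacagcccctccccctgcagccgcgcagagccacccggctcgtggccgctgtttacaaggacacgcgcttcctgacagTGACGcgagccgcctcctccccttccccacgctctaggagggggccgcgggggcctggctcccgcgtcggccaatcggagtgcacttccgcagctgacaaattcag
Jun, chr4:95052223-95052472, minus strand: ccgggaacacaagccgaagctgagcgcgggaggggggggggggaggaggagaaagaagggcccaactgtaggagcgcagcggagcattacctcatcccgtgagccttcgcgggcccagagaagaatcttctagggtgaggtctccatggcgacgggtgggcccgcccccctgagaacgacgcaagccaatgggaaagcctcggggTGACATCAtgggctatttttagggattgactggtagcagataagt
Fosl2, chr5:32136222-32136471, plus strand: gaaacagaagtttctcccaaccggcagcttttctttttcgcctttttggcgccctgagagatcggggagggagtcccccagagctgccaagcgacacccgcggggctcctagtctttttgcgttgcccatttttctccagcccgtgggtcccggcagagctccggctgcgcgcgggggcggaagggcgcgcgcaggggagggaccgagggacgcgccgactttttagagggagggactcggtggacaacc

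RefSeq promoters were matched for 8 of the 10 members, and those of Fosl1 and Egr1 were not searched. Each window of 250 bases was searched on both strands for the AP-1 site TGACTCA, the related 8-base site TGACNTCA, the CArG box bound by serum response factor, and TGACG, the first part of the ATF and CREB site, which overlaps TGACNTCA wherever N is G. TGACG was added after the sequences had been seen. TGACTCA and the CArG box were found in 0 of the 8 windows, against 4.46% and 1.47% of all 32851 promoters. TGACNTCA was found in the Jun window as TGACATCA, 45 to 38 bases before the gene start, and in 7.49% of all promoters. TGACG was found in the windows of Fos (2 matches), Fosb, Junb and Atf3 (1 match each), and in 17.8% of all promoters. A match describes the letters of the window, and a window without one describes these 250 bases alone.

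The Pgr probes, which check the labels, were measured first. Probe A_51_P213476 lay between 3.13 and 4.88 in the 5 neoplasia arrays and between -7.21 and -4.19 in the 3 wildtype arrays. These and all levels below are log2 signals relative to the 75th percentile of the same array, so that 0 is the level of that percentile. The groups differed by 9.13 ± 0.73 (SE; limma adjusted p = 0.000135), in the direction of the labels. Of the wildtype arrays 2 measured this probe above background, and wildtype 3, the lowest, did not, so the size of the difference is uncertain. The other Pgr probe, A_55_P2095663, exceeded background on 0 of 5 neoplasia arrays and 3 of 3 wildtype arrays, the neoplasia level being lower by at least 2.86-fold. Its limma test used the neoplasia signals below background, not that bound (adjusted p = 0.00337).

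Of the 55681 probes, 29332 to 32920 were well above background on the neoplasia arrays and 33737 to 34147 on the wildtype arrays. The samples also differed in markers of cell types. Over all tested features 17.0% rose and 13.4% fell (limma, adjusted p under 0.05), the shares to set beside the counts below. All 8 oocyte markers tested and all 7 luteal markers fell, and Amh, Cyp19a1, Fshr, Lhcgr, Ptgfr, Bmp15, Padi6, Zar1, Zp1 and Zp2 were not well above background on any neoplasia array. Of the granulosa markers 5 of 8 fell. Foxl2, Fst and Nr5a2 did not pass, with differences of 0.43, 1.06 and -3.01 on the log2 scale. Of the theca and interstitial markers 4 of 5 fell, and Cyp17a1 did not pass, with a difference of 0.31. Of 10 macrophage markers 9 rose, with a summed level (signal over the 75th percentile) of 126 to 261 in the neoplasia and 47.9 to 57.1 in wildtype. Of 5 erythrocyte markers 5 rose, at 379 to 1726 in the neoplasia and 9.09 to 27.1 in wildtype. Neutrophil markers (4 of 8 rose, 1 fell) summed to 114 to 145 in the neoplasia and 108 to 121 in wildtype. Most of these sums was Csf3r, which did not pass and averaged 6.80 and 6.67 on the log2 scale. S100a9, S100a8, Retnlg and Elane rose, by 3.92, 3.73, 3.63 and 0.99 on that scale, and Ltf fell by 4.87. Endothelial markers (2 of 7 rose) summed to 68.6 to 144 in the neoplasia and 47.8 to 58.6 in wildtype, and lymphocyte markers (2 of 8 rose, 1 fell) to 2.72 to 8.63 in the neoplasia and 1.71 to 2.68 in wildtype. Epithelial markers (2 of 8 rose, 2 fell) summed to 180 to 773 in the neoplasia and 12.6 to 70.6 in wildtype, and fibroblast and smooth muscle markers (0 of 8 passed) to 17.8 to 354 in the neoplasia and 202 to 446 in wildtype. Krt18, the brightest epithelial marker on average in both groups (7.96 and 4.44 on the log2 scale), rose with Krt8, whereas Epcam and Cdh1 fell. The counts of endothelial, lymphocyte and epithelial markers called are near the shares over all features, and so are no result about these lists. The samples are whole tissues, in which fewer cells of a type and less RNA per cell cannot be told apart. The part of these cell types in the results below was not tested.

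Most of the early response set was higher in the neoplasia, with Fosl1 and Fos the farthest apart from wildtype, and Fosl2 was lower. Of the 10 genes, 6 rose, 1 fell and 3 did not pass the test (limma, adjusted over 25216 features, threshold 0.05). Fos, Fosb, Fosl1, Junb, Jund and Atf3 rose, Fosl2 fell, and Jun, Egr1 and Ier3 did not pass. Across all features 30.4% were called, 17.0% higher and 13.4% lower. The same 7 genes were those whose groups did not overlap, against 39.1% of all features, 23.2% with the neoplasia higher and 16.0% with it lower. The median over the 10 genes was 1.46 on the log2 scale, against 0.14 over all features. All 10 genes passed the filter of 3 arrays above background, Fosl1 by its neoplasia arrays alone. With a filter of all 8 arrays, which leaves Fosl1 out, 9 genes were tested, of which 5 rose and 1 fell. Over all features 4102 rose and 1903 fell with that filter. The rises numbered 3 without wildtype 1, 3 without wildtype 2 and 3 after scaling on spike-in controls, and Fosl2 fell in each of these. Rises over all features also dropped in these settings, to 1310, 1533 and 739, from 4295 in the main fit.

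**Figure D1:**
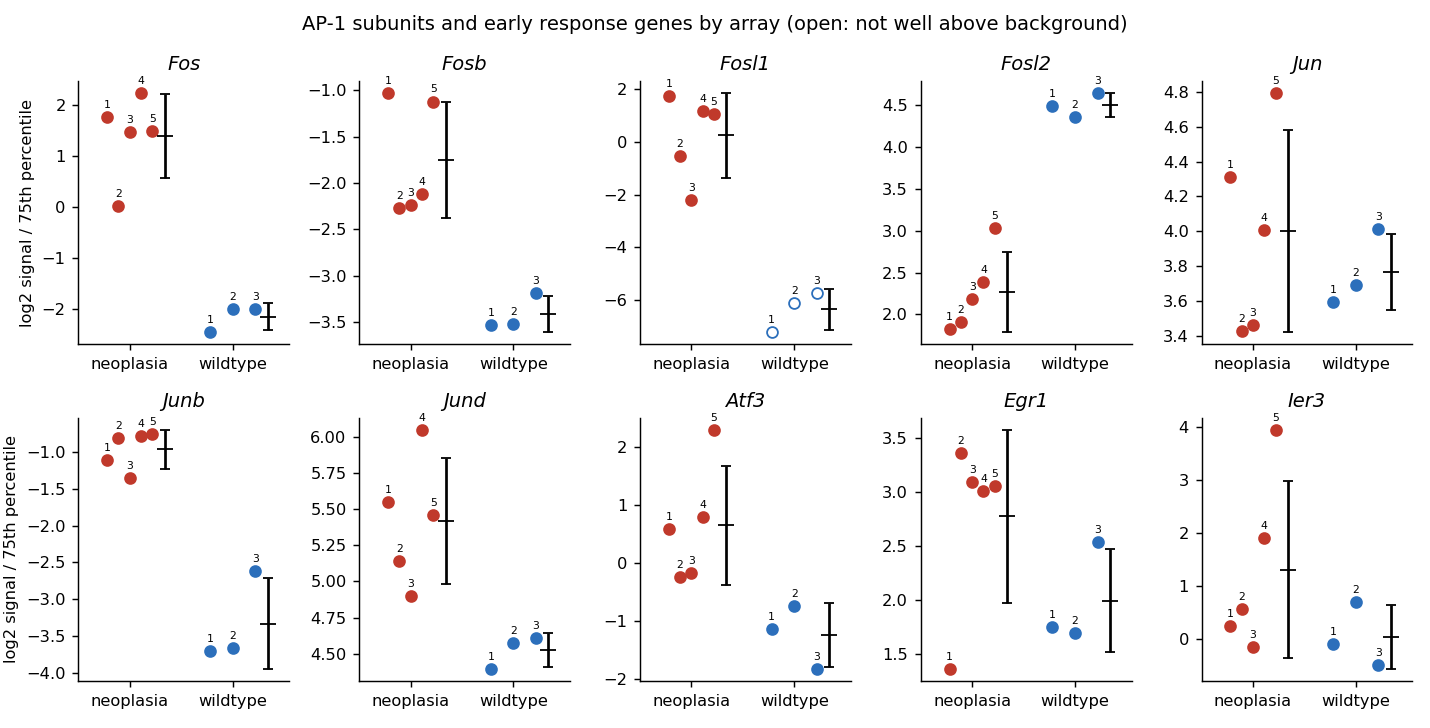
Level of each gene on each array, as log2 of the signal over the array's 75th percentile (vertical axis, a different range in each panel), with neoplasia arrays in red on the left and wildtype arrays in blue on the right. Numbers are replicates, open circles were not well above background, and black bars are the mean and SD. Fos, Fosb, Fosl1, Junb, Jund and Atf3 lie above every wildtype array, and Fosl2 lies below.

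Fos, the prototype Fos subunit and a strong transcriptional activator, had levels of 1.75, 0.02, 1.46, 2.23 and 1.49 in neoplasia 1 to 5, against -2.46, -2.00 and -2.01 in wildtype 1 to 3. Each neoplasia array was higher than each wildtype array, and neoplasia 2 was the lowest of the 5. The difference was 3.54 ± 0.45 (SE), or 11.7-fold (limma adjusted p = 0.00142). It ranked 339th among the rises of the 25216 features. In the 20 alternatives the difference lay between 2.94 and 3.89, and it passed in each that held more than 1 neoplasia array. Among these, the fit blocked on slide row took its difference from neoplasia 5 alone.

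Fosb, a second activating Fos subunit, was dim in both groups. Its levels were -1.03, -2.27, -2.24, -2.12 and -1.12 in neoplasia 1 to 5, against -3.53, -3.52 and -3.19 in wildtype 1 to 3. Neoplasia 1 and 5 stood above the other neoplasias, and the groups did not overlap. The difference was 1.66 ± 0.36 (SE), or 3.15-fold (limma adjusted p = 0.0125). The call was lost without wildtype 1 or 2 (largest adjusted p = 0.0588), and spike-in scaling gave 1.06 (adjusted p = 0.260). A fit blocked on replicate number also lost the call (limma adjusted p = 0.0564).

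Fosl1 encodes Fra-1, a Fos protein without the activation domain of Fos that is known to accumulate in invasive cells. It had levels of 1.72, -0.52, -2.21, 1.17 and 1.07 in neoplasia 1 to 5, against -7.22, -6.10 and -5.72 in wildtype 1 to 3. The probe was well above background on 5 of 5 neoplasia arrays and on 0 of 3 wildtype arrays, so its wildtype level is a bound. Set against that bound, the neoplasia level of Fosl1 was at least 43.5-fold higher. The limma test used the wildtype signals below background, not the bound, and gave an adjusted p of 0.00166. For each wildtype array a bound of this kind uses the dimmest signal that any probe above background gave there, or the probe's own signal where that is brighter. With normexp, which raises dim signals, the difference was 3.30 and still passed. The neoplasias themselves spread by 1.61 (SD, n = 5), with neoplasia 3 the lowest and neoplasia 1 the highest.

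Fosl2 encodes Fra-2, the partner of JunD in luteal cells of the rat. Its brighter probe, A_55_P1995195, had levels of 1.82, 1.92, 2.19, 2.38 and 3.03 in neoplasia 1 to 5, against 4.49, 4.36 and 4.65 in wildtype 1 to 3. Each neoplasia array was lower than each wildtype array, with neoplasia 5 the nearest to them. Fosl2 fell by 2.23 on the log2 scale, with an SE of 0.29 (limma adjusted p = 0.00156), and it passed in each alternative that held more than 1 neoplasia array. The smallest fall was 1.47 on the log2 scale, in slide row 2 and in the fit blocked on slide row. That row holds neoplasia 5 and the 3 wildtype arrays, so among the neoplasias both values rest on neoplasia 5 alone. The dimmer probe, A_51_P507242, lay at -5.02 to -3.24 in the neoplasia and -3.46 to -2.88 in wildtype, with overlapping groups. It differed by -0.85 ± 0.39 (SE) and did not pass in a fit over all 34280 probes (limma adjusted p = 0.125). The luteal markers, known from the cells that hold Fosl2 in the rat, summed to 41.6 to 135 in the neoplasia and 404 to 727 in wildtype, and their part in the fall was not tested.

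In the Jun family the smallest difference was that of Jun itself, the strongest activator of the family. Jun had levels of 4.31, 3.42, 3.46, 4.01 and 4.79 in neoplasia 1 to 5, against 3.59, 3.69 and 4.01 in wildtype 1 to 3. The wildtype values lay inside the range of the neoplasias, of which 5 was the highest. The difference of 0.24 ± 0.34 (SE) did not pass (limma adjusted p = 0.616), and its 95% interval was -0.54 to 1.01. Its sign was negative with quantile normalization, with spike-in scaling and in the authors' deposited values, so no direction is given for Jun.

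Junb encodes a Jun protein that activates less strongly than Jun and can hold Jun in check. Its levels were -1.11, -0.81, -1.36, -0.79 and -0.75 in neoplasia 1 to 5, against -3.70, -3.67 and -2.62 in wildtype 1 to 3. The neoplasias lay close together (SD 0.26, n = 5), and wildtype 3 was the nearest to them. Junb rose by 2.37 ± 0.30 (SE), or 5.16-fold (limma adjusted p = 0.00132). In the alternatives it rose by 1.63 to 2.72, and it passed in each that held more than 1 neoplasia array. Among these, the fit blocked on slide row took its rise from neoplasia 5 alone.

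Jund, a Jun protein made at steady levels in many cells, had levels of 5.55, 5.14, 4.90, 6.05 and 5.46 in neoplasia 1 to 5, against 4.40, 4.58 and 4.61 in wildtype 1 to 3. The groups did not overlap, and neoplasia 3 was the nearest to wildtype. Jund rose by 0.89 ± 0.27 (SE), or 1.85-fold (limma adjusted p = 0.0390). The call was lost without neoplasia 1 or 4 and without wildtype 1, 2 or 3 (largest adjusted p = 0.140). Quantile normalization lost it as well (0.28, adjusted p = 0.363), and scaling on the spike-in controls left 0.29 (adjusted p = 0.813). No filter on dim probes also lost the call (limma adjusted p = 0.0571). So did fits blocked on replicate number or slide row (adjusted p = 0.153 and 0.257) and the authors' deposited values (adjusted p = 0.222).

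**Figure D2:**
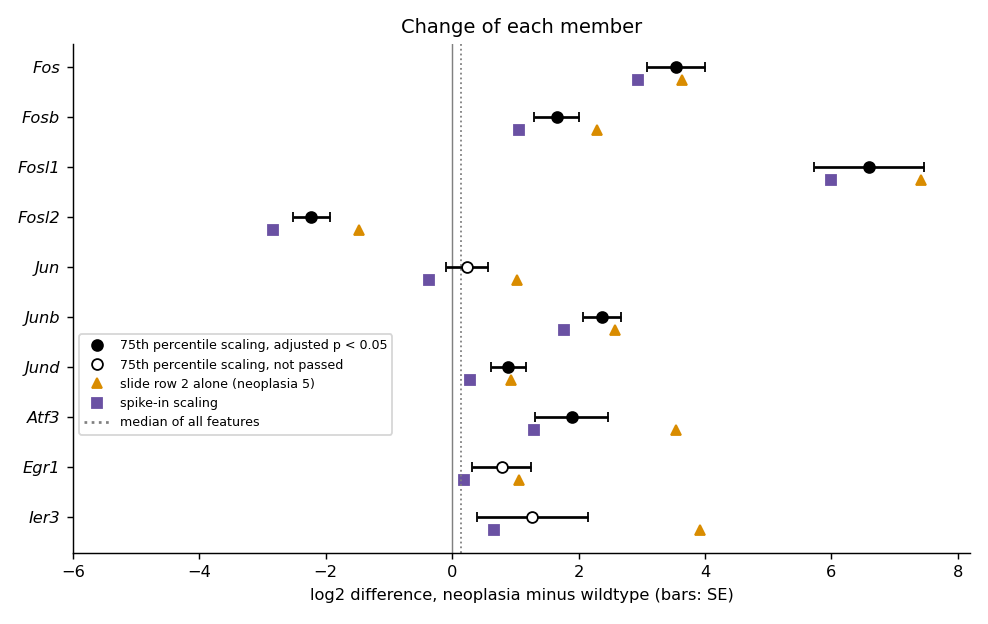
Log2 difference between neoplasia and wildtype for each gene (horizontal axis), with the limma SE as bars, filled where the adjusted p passed 0.05. Triangles set neoplasia 5 against the wildtype arrays of its slide row, squares use spike-in scaling, and the dotted line is the median of all features at 0.14. Fosl1 and Fos have the highest circles, Fosl2 is the sole gene left of 0 under each of these settings, and Jun lies on both sides of 0.

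Members of a family changed by different amounts. Within an array, the log2 difference between a pair of members was compared between the groups with a two-sided exact permutation test over all 56 splits into 5 and 3 arrays, for 6 pairs of the Fos family and 3 of the Jun family. The smallest p this design allows is 0.0179, and p-values were adjusted over the 9 pairs. Fosl1 changed by 8.83 more than Fosl2 (exact p = 0.0179, adjusted p = 0.0230), a value that rests on wildtype signals of Fosl1 below background. Fos changed by 5.77 more than Fosl2 and Fosb by 3.89 more than Fosl2, each with the same p and no overlap between the groups. Fos also changed by 1.89 more than Fosb (exact p = 0.0179, adjusted p = 0.0230). The difference between Fos and Fosl1 was -3.05 (exact p = 0.0357, adjusted p = 0.0402) and was -0.36 with normexp (exact test, adjusted p = 0.643), and it too rests on wildtype signals of Fosl1 below background. The call for Fos and Fosb was lost without neoplasia 1 or 5 (exact test, adjusted p = 0.0643 and 0.0571), and that for Fos and Fosl1 without neoplasia 1, 2, 4 or 5. Without 1 wildtype array none of the 9 pairs passed (smallest adjusted p = 0.0612, exact test), since 2 wildtype arrays allow too few splits.

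In the Jun family, Jun changed by -2.13 relative to Junb (exact p = 0.0179, adjusted p = 0.0230). Junb changed by 1.48 more than Jund at the same p. Jun and Jund did not differ beyond the spread of the arrays, with a difference of -0.65 (exact p = 0.0893, adjusted p = 0.0893). These values show unequal change and say nothing of which subunit was more abundant, since signals of different probes were not set against each other.

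**Figure D3:**
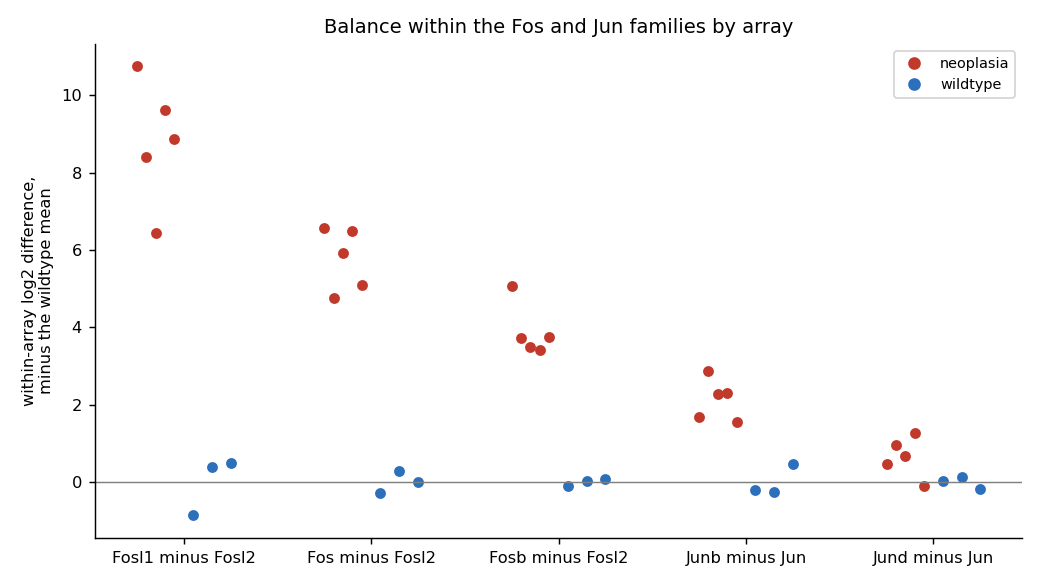
Within-array log2 difference between 2 members of a family, minus its wildtype mean (vertical axis), with neoplasia arrays in red to the left and wildtype arrays in blue to the right of each pair. The neoplasias lie clear of wildtype for the first 4 pairs, and those for Jund minus Jun overlap with wildtype.

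Atf3, a stress-induced bZIP factor that dimerizes with Jun proteins, had levels of 0.58, -0.25, -0.17, 0.80 and 2.30 in neoplasia 1 to 5, against -1.14, -0.73 and -1.83 in wildtype 1 to 3. Neoplasia 5 was the highest, and the groups did not overlap. Atf3 rose by 1.89 ± 0.58 (SE), or 3.70-fold (limma adjusted p = 0.0393). The call was lost without neoplasia 1 or 4 or any 1 wildtype array (largest adjusted p = 0.129), and spike-in scaling left 1.29 (adjusted p = 0.172). No filter on dim probes also lost the call (limma adjusted p = 0.0530). So did a fit blocked on replicate number (adjusted p = 0.0671) and the authors' deposited values (adjusted p = 0.0927).

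Egr1, a zinc finger early response factor that gonadotropins induce in the ovary, had levels of 1.36, 3.36, 3.09, 3.01 and 3.05 in neoplasia 1 to 5, against 1.75, 1.69 and 2.54 in wildtype 1 to 3. Neoplasia 1 lay below every wildtype array and the other 4 above. The difference of 0.78 ± 0.46 (SE) did not pass (limma adjusted p = 0.223), with a 95% interval of -0.28 to 1.84. Without neoplasia 1 it was 1.13 and passed (adjusted p = 0.0207).

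Ier3, an early response gene that acts on cell survival, had levels of 0.25, 0.56, -0.15, 1.91 and 3.95 in neoplasia 1 to 5, against -0.09, 0.69 and -0.49 in wildtype 1 to 3. Neoplasia 4 and 5 lay above wildtype and the other 3 within its range. The difference of 1.27 ± 0.88 (SE) did not pass (limma adjusted p = 0.293), with a 95% interval of -0.75 to 3.29. In slide row 2 it was 3.91, a value set by neoplasia 5, the highest array for this gene and the sole neoplasia of that row.

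The neoplasias differed in which genes were highest. For 9 of the 10 genes the SD was larger among the neoplasias than among the wildtype arrays, Junb being the exception. This is not particular to these genes. The SD of the difference between 2 whole arrays was 0.925 to 1.39 among the neoplasias and 0.493 to 0.843 among wildtype. Neoplasia 5 held the highest neoplasia level of 5 genes, Fosl2, Jun, Junb, Atf3 and Ier3, and neoplasia 1 and 4 held those of 2 each. Neoplasia 2 and 3 each held the lowest level of 4 genes. Neoplasia 5 also shared its slide row with the 3 wildtype arrays, whereas neoplasia 1 to 4 filled the other row. Within that row the differences were 3.64 for Fos, 2.29 for Fosb, 7.42 for Fosl1, -1.47 for Fosl2, 2.58 for Junb, 0.93 for Jund and 3.54 for Atf3. These are values of 1 neoplasia array with no spread between neoplasias, and no test of that row alone is given. Blocking on slide row gave the same differences, since the other row holds no wildtype array. Neoplasia 1 to 4 entered that fit through their spread alone, and Jund no longer passed (limma adjusted p = 0.257).

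Genes with a profile like that of Fos or Jun were found by the root mean square difference of log2 levels over the 8 arrays, after each profile was centred on its mean, among 12655 named genes above background on every array. Those nearest to Fos were P4ha2 (0.26), Niban2 (0.37), Cep295nl (0.40), Osgin1 (0.41) and Timp2 (0.43), against a median distance of 1.75. Their differences, which this choice largely fixes, were 3.56 to 3.83. Those nearest to Jun were Gm14151 (0.12), Lhx6 (0.14), Fermt2 (0.17), Vamp3 (0.18) and Kremen1 (0.18), against a median distance of 0.64.

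Other early response genes rose more often than they fell. Of 25 tested, 14 rose, 1 fell and 10 did not pass, with a median of 1.38 against 0.14 over all features, of which 17.0% rose and 13.4% fell. Maff, a small Maf bZIP factor, rose by 4.09 ± 0.35 (SE) to 2.39 ± 0.51 in the neoplasia, against -1.71 ± 0.53 in wildtype (SD, n = 5 and 3; limma adjusted p = 0.000192). Cebpd, a bZIP factor of the acute phase response, rose by 3.33 ± 0.33 (SE), and Ccn1, a secreted matrix protein, by 3.32 ± 0.27 (SE). Csrnp1, a nuclear early response protein, rose by 2.81 ± 0.32 (SE; limma adjusted p from 0.000134 to 0.000790 for the 3). The gene that fell was Nr4a2, an orphan nuclear receptor named after its value was seen, which fell by 1.14 on the log2 scale (adjusted p = 0.0388). It was no longer called without any 1 wildtype array or without neoplasia 1, 2 or 3. Its relative Nr4a1, also named afterwards, differed by -0.01 ± 0.37 (SE; adjusted p = 0.981). A fit blocked on slide row and one scaled on spike-in controls each called 7 of these genes higher. Of all features they called 740 and 739 higher, against 4295 in the main fit.

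Of the dimer partners and related bZIP factors, 20 were tested, of which 8 rose and 0 fell, with a median of 0.59. Over all features 17.0% rose and 13.4% fell, with a median of 0.14. At an unadjusted p under 0.05 limma gave 10 rises and 1 fall, that of Atf2, named after its value was seen, at -0.49 ± 0.17 (SE; limma adjusted p = 0.0575). Atf5 and Atf4, factors of the integrated stress response, rose by 2.99 ± 0.33 and 1.59 ± 0.24 (SE; limma adjusted p = 0.000708 and 0.00300). Mafk, a partner of several bZIP factors, rose by 1.46 ± 0.31 (SE; adjusted p = 0.0121). Jdp2, which dimerizes with Jun and represses AP-1, rose by 1.41 ± 0.22 (SE; adjusted p = 0.00332). The rises numbered 5 without neoplasia 3, wildtype 1 or wildtype 3, 4 without wildtype 2, 2 in a fit blocked on slide row and 1 after scaling on spike-in controls. In the same order, 3064, 1310, 1966, 1533, 740 and 739 of all features rose, against 4295 in the main fit.

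The kinases and factors that feed early response genes showed the smallest median of the lists, 0.34, with 6 of 27 higher and 3 lower. Those counts are near the shares over all features, 17.0% higher and 13.4% lower, and so are no result about these genes as a list. Map2k1, a kinase above ERK, rose by 1.30 ± 0.33 (SE; limma adjusted p = 0.0231), and Map2k3, a kinase above p38, by 1.00 ± 0.19 (SE; adjusted p = 0.00837). Mapk10, a JNK kinase known from neurons, fell by 4.88 on the log2 scale with an SE of 1.29 (adjusted p = 0.0254). Its difference was -1.07 in slide row 2 and in the fit blocked on slide row (adjusted p = 0.625 in the blocked fit), and its call was lost without neoplasia 3 or any 1 wildtype array. Map2k6, a further kinase above p38, fell by 2.01 (adjusted p = 0.0213), and Mapk8, a JNK kinase named after its value was seen, fell by 0.89 (adjusted p = 0.0263). Srf, the serum response factor, also named afterwards, differed by 0.06 ± 0.22 (SE; adjusted p = 0.861). The calls rest on few arrays: 0 fell without any 1 wildtype array, and 1, 1 and 2 rose without wildtype 1, 2 and 3, against 3 without neoplasia 4 and 10 without neoplasia 5. Of all features 1530, 1681 and 2108 fell without wildtype 1, 2 and 3, and 1310, 1533 and 1966 rose. The rises over all features were 2873 without neoplasia 4 and 5715 without neoplasia 5. A fit blocked on slide row and one scaled on spike-in controls each called 0 higher, and 740 and 739 of all features.

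Of 18 feedback inhibitors of the MAP kinases tested, 9 rose, 0 fell and 9 did not pass, against 17.0% higher and 13.4% lower over all features. The median was 1.22, and limma gave 11 rises and 0 falls at an unadjusted p under 0.05. Dusp4 and Dusp2, nuclear phosphatases that switch off ERK and are themselves early response genes, rose by 5.66 ± 0.51 and 4.59 ± 0.43 (SE; limma adjusted p = 0.000235 and 0.000297). Dusp4 averaged 1.89 ± 0.91 in the neoplasia and -3.77 ± 0.42 in wildtype (SD, n = 5 and 3). Dusp9 and Dusp8, further phosphatases of the family, rose by 3.21 ± 0.57 and 2.59 ± 0.36 (SE; adjusted p = 0.00563 and 0.00205). The rises numbered 4 after scaling on spike-in controls and 3 in a fit blocked on slide row, in which Dusp9 and Dusp8 did not pass. Of all features 739 and 740 rose in these settings, against 4295 in the main fit.

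Genes known as AP-1 targets had the largest median of the lists, 2.16, with 15 of 26 higher, 2 lower and 9 not passing, against 17.0% higher and 13.4% lower over all features. Of the 15, Mmp13, Ptgs2 and Lif, a cytokine named after its value was seen, were above background on 0 of 3 wildtype arrays and passed the filter through their neoplasia arrays alone. With these 3 at their bounds the median was 2.09, and among genes above background on all 8 arrays 12 rose. Ccnd1, the cyclin of early G1, rose by 5.81 ± 0.58 (SE) to 7.51 ± 1.06 in the neoplasia, against 1.71 ± 0.46 in wildtype (SD, n = 5 and 3; limma adjusted p = 0.000419). Mmp13, a collagenase, and Ptgs2, the inducible prostaglandin synthase, were not well above background in wildtype and were at least 25.5-fold and 11.8-fold higher than their bounds. The limma test used their wildtype signals below background, not the bounds (adjusted p = 0.000231 and 0.000869). The genes that fell, named after their values were seen, were Gja1, the main gap junction protein of granulosa cells, which fell by 3.21 on the log2 scale (adjusted p = 0.00352), and Fgf7, a stromal growth factor, which fell by 2.45 (adjusted p = 0.0276) with overlapping groups and 2 of 5 neoplasia arrays above background. The falls numbered 1 without neoplasia 1 or 4 or wildtype 1 or 2. Of all features 3073, 2587, 1530 and 1681 fell in these settings, against 3376 in the main fit. Many of these genes have other regulators, and whether AP-1 acted on them was not measured.

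**Figure D4:**
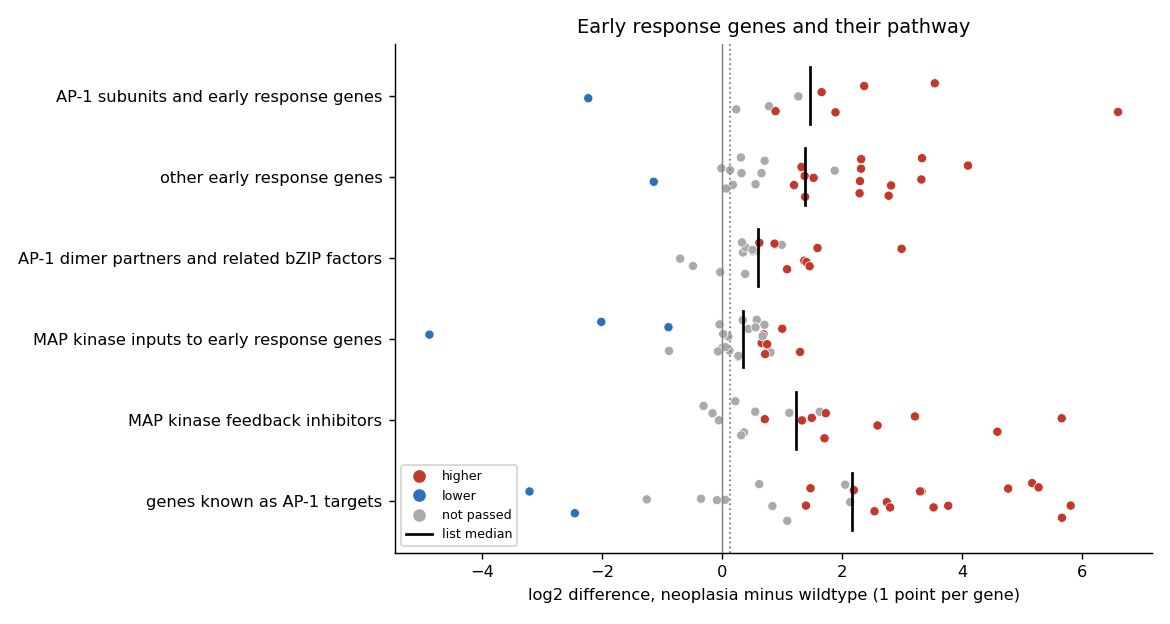
Log2 difference between neoplasia and wildtype (horizontal axis) for each tested gene of the set and of 5 related lists, red where higher, blue where lower and grey where the test was not passed. Black bars are list medians, from 0.34 for the MAP kinase inputs to 2.16 for the AP-1 targets, and the dotted line is the median of all features at 0.14.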

How the data were processed

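Ovarian RNA of 8 samples was hybridised to one-colour (Cy3) Agilent arrays on 1 slide. Each array's deposited scanner output gives a linear intensity for every spot, from which Feature Extraction (Agilent, version 11.0.1.1, per the file headers) had subtracted background, with no normalization between arrays. The authors' deposited value table is in log2 units, and its 37932 entries equalled, within 0.001, the log2 mean of processed intensities sharing 1 accession. Partek is named in the submitters' processing notes. Accessions were matched to RefSeq symbols (GRCm38.p6), which named 26582 of 55681 probes (47.7%).

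Control and outlier-flagged spots were left out, spots of a probe were averaged, and log2 signals were taken minus each array's 75th percentile (307 to 515). A probe was tested where 3 or more arrays showed it well above background, with the brightest probe for each gene or accession, which gave 25216 features. No probe was saturated. Groups were compared with limma 3.58.1 (R 4.3.3), with Benjamini-Hochberg adjustment at 0.05, and the test was tried on simulated data. Groups were 5 neoplasias and 3 wildtype samples, and the number of arrays limits the precision. Within-array differences were compared with exact permutation tests. Alternatives were 12 other settings and leaving out each of the 8 arrays. The members, lists and tests were chosen with earlier results of these data known. Genes named were the members, Pgr, up to 4 called genes of each list by size, and the 5 genes nearest to Fos and to Jun. The cell type markers named and the genes said to be named after their values were seen lie outside this rule. 1 of the list genes so chosen is not reported here.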

Additional observations from a re-analysis of the deposited data

Results flagged for a closer look

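Dixon's test for a single outlying sample was applied to the 5 neoplasia arrays for the 11 probes of the set and the 20 genes chosen from the lists, and chance marks about 1 in 20 such groups. It marked 2 of these 31. Egr1 on neoplasia 1 lay at 1.36, against 3.01 to 3.36 on the other 4 neoplasia arrays. Mmp13 on neoplasia 5 lay at 0.99, against -1.07 to -0.67 on the other 4. The wildtype group of 3 arrays was too small for this test.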

How the results depend on the processing

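Fos, Fosl1, Fosl2 and Junb kept their direction in each alternative that gave a value. They passed the test in each of these that held more than 1 neoplasia array. The fit blocked on slide row is among these, though its differences come from neoplasia 5 alone. Jun changed sign with quantile normalization (-0.24), spike-in scaling (-0.37), the replicate block (-0.031) and the authors' deposited values (-0.24). The median of all features was 0.14, against -0.46 with spike-in scaling, -0.35 in the authors' deposited values, 0.23 with normexp and 0.03 with quantile normalization, and 4295 of 7671 called features rose, against 15.5%, 20.2%, 68.5% and 50.4% of those called under these settings. With spike-in scaling 4770 features were called, 739 of them higher, and the rises were 3 in the set, 7 among other early response genes, 1 among partners, 0 among kinase inputs and 4 among feedback inhibitors. This scaling used 5 of 10 controls. Their mean log2 signal was 8.90 on neoplasia 1, 10.19 to 10.75 on neoplasia 2 to 5 and 10.04 to 10.14 in wildtype. The low value of neoplasia 1 shifts every gene on that array, and its part in the lost calls was not tested. The authors' deposited values gave 1498 higher and 5916 lower features, 5 partners higher and 1 lower, and 0 inputs higher and 6 lower. Array weights gave 13366 features, 7938 higher and 5428 lower, with 2 partners lower and 12 inputs higher. With slide row as a block 1537 were called, 740 higher and 797 lower, with 7 early response genes higher and 0 lower, 2 partners higher, 0 inputs either way, 3 feedback inhibitors higher and 0 targets lower. Slide row 2 alone gave 2650 features higher, 0 early response genes lower, 1 input lower and 1 target lower. The filter of all 8 arrays gave 1903 features lower, 1 partner lower and 1 target lower. Normexp gave 1 partner and 1 target lower and -0.36 for Fos minus Fosl1, quantile normalization and eBayes with trend and robust each gave 1 partner lower, and no filter gave 0 early response genes lower. Scaling on the 75th percentile or on spike-in controls moves all features of an array by the same amount, and the authors' values carry no such scaling. The 75th percentile was 307 to 426 on the neoplasia arrays and 460 to 515 on the wildtype arrays. Why it differed, and the cause of the other shifts, was not tested.

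Same-numbered samples did not deviate together (r = -0.05, -0.03 and -0.00 for numbers 1 to 3). No pairing by number was seen, though 3 numbers are too few to exclude one. The replicate block gave 4712 features, 2046 higher, with 3 members of the set higher and 1 input each way.

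Leaving out each array in turn gave 2840 to 9998 called features, 1310 to 5715 higher and 1530 to 4283 lower, and 3 to 6 members of the set higher. It gave 0 to 1 other early response genes lower, 4 to 10 partners higher and 0 to 1 lower, 1 to 10 inputs higher and 0 to 4 lower, and 1 to 2 targets lower. The differences within families were 1.58 to 2.10 for Fos minus Fosb, -3.68 to -2.77 for Fos minus Fosl1, 5.57 to 6.03 for Fos minus Fosl2, -5.43 to -4.56 for Fosb minus Fosl1, 3.59 to 4.01 for Fosb minus Fosl2, 8.35 to 9.42 for Fosl1 minus Fosl2, -2.36 to -1.95 for Jun minus Junb and 1.28 to 1.79 for Junb minus Jund. Signal over background limits Fosl1, whose wildtype level is a bound, and the dimmer Fosl2 probe.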
